A study of Mus musculus with 69 samples.

Results

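The open regions of chromosome 11 were the subject of this comparison. ATAC-seq, in which a transposase inserts sequencing adapters into accessible DNA, marks open chromatin as peaks of sequenced fragments. The authors called peaks separately in 6 libraries, and peaks of the 6 lists that overlapped by at least 1 bp were merged into 89596 regions. All 6905 regions on chromosome 11 were taken, and the 80048 regions on the other autosomes served for comparison. No measured value entered this choice, but the chromosome was picked with its share of peaks already known, so that share is given as a description. The question was whether the surplus of chromosome 11 peaks in the mutants sat at weak regions and whether it was even along the chromosome.

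The libraries came from the mouse ESC line J1, with 2 libraries from WT cells and 2 from each of a pair of edited clones, Mut18 and Mut43 (H3.3K27R). In each clone the histone genes H3f3a and H3f3b had been edited with CRISPR-Cas9 so that H3.3 carries arginine in place of lysine 27. Each mutant line is 1 clone, so a property of the clone and an effect of the mutation cannot be told apart. All cells were grown on feeder cells and passaged without feeders before harvest, and mRNA-seq was done on the same 3 lines, again with 2 libraries each. H3f3b lies on chromosome 11 and H3f3a does not.

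H3.3 is the histone variant that is placed on chromatin outside replication, and it is enriched at promoters, at enhancers and on some repeats. Lysine 27 of histone H3 carries acetylation at active enhancers and methylation at silenced developmental genes, and arginine can take neither. Promoters in ESCs are mostly rich in CpG and open in nearly every cell, whereas open regions away from a transcription start site (TSS) include enhancers and sites bound by CTCF.

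The sequences below are those on which the later results turn, all read from the plus strand of the GRCm38 (mm10) reference, with motif matches in capitals. The first is the upstream edge of the H3f3b promoter region (chr11:116024719-116024813), shown because this is the edited gene of the chromosome.
H3f3b promoter: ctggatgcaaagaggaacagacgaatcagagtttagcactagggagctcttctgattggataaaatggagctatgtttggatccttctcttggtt
The next belongs to the region 922 bp from the TSS of Osm (chr11:4237355-4237554), with a peak in each of the 4 mutant libraries and in no WT library.
Osm: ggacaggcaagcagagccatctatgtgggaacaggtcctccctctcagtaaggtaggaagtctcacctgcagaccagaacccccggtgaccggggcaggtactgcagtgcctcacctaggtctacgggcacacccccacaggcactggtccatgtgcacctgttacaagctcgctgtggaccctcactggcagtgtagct
The Zrsr1 sequence ends at the TSS of this imprinted gene (chr11:22971877-22972004), whose promoter gained signal, and its capitals mark a GC box.
Zrsr1: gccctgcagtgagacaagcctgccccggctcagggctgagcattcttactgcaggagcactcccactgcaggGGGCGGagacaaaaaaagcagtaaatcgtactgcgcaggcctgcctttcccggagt
The Gal3st1 sequence surrounds the summit of the region with the lowest p of all those that gained signal on the chromosome (chr11:3992421-3992620).
Gal3st1: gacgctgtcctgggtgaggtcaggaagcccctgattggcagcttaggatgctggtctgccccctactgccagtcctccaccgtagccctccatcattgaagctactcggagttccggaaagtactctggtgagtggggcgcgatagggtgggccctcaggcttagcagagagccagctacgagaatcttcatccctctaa
The Gm11531 sequence is from a mutant-only region (chr11:96425325-96425524), and its capitals mark a match to the core of the CTCF motif.
Gm11531: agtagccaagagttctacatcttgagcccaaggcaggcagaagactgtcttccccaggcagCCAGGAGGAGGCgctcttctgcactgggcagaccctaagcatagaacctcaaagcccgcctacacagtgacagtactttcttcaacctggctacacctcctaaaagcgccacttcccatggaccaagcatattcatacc
The Cluh sequence is from the strongest WT-only region (chr11:74680451-74680650), which lies in an intron of Pafah1b1, the gene of the dynein regulator LIS1.
Cluh: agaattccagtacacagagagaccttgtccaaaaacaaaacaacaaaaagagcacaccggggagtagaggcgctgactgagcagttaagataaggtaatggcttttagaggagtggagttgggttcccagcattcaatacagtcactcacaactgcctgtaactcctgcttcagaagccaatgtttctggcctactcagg
In windows of 200 bp around the summits, the GC box GGGCGG, bound by SP and KLF factors, was found on either strand in 23.8% of the 6905 chromosome 11 regions and in 23.2% of all 89596 regions. The core of the CTCF motif was found in 4.79% and 4.02%. The YY1 motif AAGATGGC was found in 2.95% of the chromosome 11 windows and 4.75% of all windows, and the AP-1 motif TGANTCA in 7.41% and 6.78%. GC boxes sat mainly at promoters, in 45.5% of the 1984 chromosome 11 regions within 1 kb of a TSS and in 15.04% of the 4921 regions beyond it. Median GC content was 61.5% and 53.5% in these classes.

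For chromosome 11 the WT lists held 5631 and 4848 peaks, those of Mut18 5274 and 5825, and those of Mut43 5717 and 5489. As a share of the list this was 7.17% and 7.19% in WT, against 8.29% and 8.34% for Mut18 and 8.33% and 8.34% for Mut43. The 6905 regions had a median width of 332 bp (126 to 2027 bp). The lists give no read numbers, but if the fold enrichment is a ratio of counts each raised by 1 and the p is a Poisson p, they together fix the number of fragments over its summit (the summit pileup) and the number expected there from the surroundings (the local background). Both were recovered under this assumption, to within 0.001 of the listed -log10 p, for 100% of peaks in all 6 lists, while the settings of the peak caller are not given in the sources used here. The lowest background, which scales with depth, was 1.67 times as high in WT replicate 1 as in the shallowest library and 1.00 to 1.14 times as high in the other 5, so WT replicate 1 stood apart. Pileups were therefore divided by the median of the other autosomes at regions with a peak in all 6 libraries. In mRNA-seq all 10 ESC markers were detected. Of these, 7 were higher in the mutants and 2 lower (edgeR, adjusted p under 0.05), beside 23.5% and 24.5% of all genes. Pou5f1, the gene of OCT4, was among the lower ones, at 12092 and 12814 normalized counts in WT and 10007 to 10618 in the mutants. Of the 10 feeder fibroblast markers, 6 of 8 tested were lower in the mutants and none higher, beside 24.5% and 23.5% of all genes. WT replicate 1 was above WT replicate 2 in all 6, from 104 and 92.1 counts for Pdgfrb to 843 and 257 for Col3a1. The summed level of the 10 markers was 4159 and 2903 in WT against 1944 to 2560 in the mutants. Their part in the results was not tested, and in bulk samples fewer cells of a type and less RNA per cell cannot be told apart.

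Whether the surplus sat at weak peaks depended on the measure of strength. When each list was split into quintiles by fold enrichment, the weakest quintile carried most of it: chromosome 11 held 10.3% and 10.4% of these peaks in WT, against 13.8% and 13.7% for Mut18 and 13.6% and 13.7% for Mut43, a ratio of 1.33. The strongest quintile held 4.81% and 5.38% in WT and 5.45%, 5.24%, 5.18% and 5.26% in the mutants, where the groups overlapped. By -log10 p the order turned round. The strongest quintile then held 6.77% and 7.27% in WT against 8.82% to 9.20% in the mutants, a ratio of 1.28, and the weakest held 8.00% and 7.55% against 7.84% to 8.51%, with overlapping groups and a ratio of 1.04. By summit pileup, a ranking added after the data were seen, the strongest quintile went from 9.37% and 9.26% to between 12.9% and 13.2%, a ratio of 1.40. The weakest went from 5.58% and 5.47% to between 4.25% and 4.83%, with every mutant value below both WT values. The surplus in the weakest quintile minus that in the strongest was 3.17 percentage points by fold enrichment, -1.64 by -log10 p and -4.70 by summit pileup. Each of these 3 differences gave p = 0.0667 in an exact two-sided permutation test over the 15 ways to split the libraries, which is the smallest p that 2 against 4 libraries allow, so no such test here could reach 0.05.

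**Figure D1:**
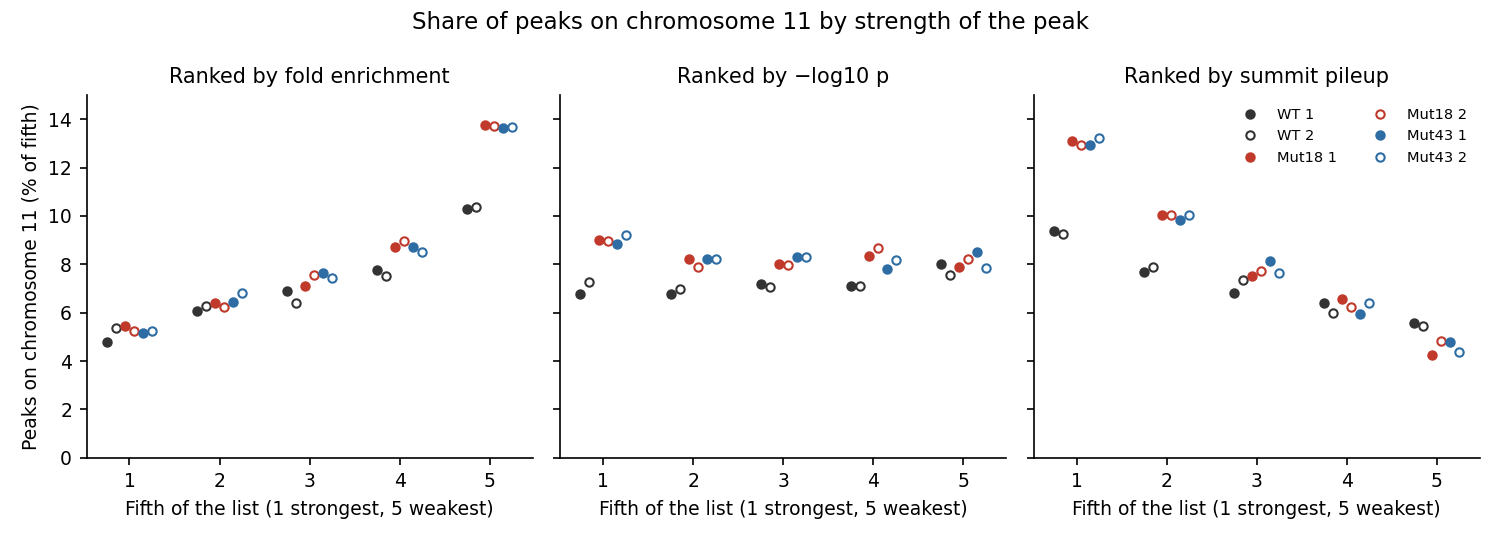
Share of all peaks that lay on chromosome 11 (y axis, percent) in each quintile of a library's list (x axis, 1 strongest to 5 weakest), ranked by 3 measures, with 1 point per library (filled, replicate 1; open, replicate 2). WT and mutants part at quintile 5 by fold enrichment and at quintile 1 by summit pileup, where the mutants lie between 12.9% and 13.2% and WT at 9.37% and 9.26%.

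Each measure treats the surroundings of a peak differently, and the surroundings differed between the groups too. At the 3902 chromosome 11 regions with a peak in all 6 libraries, the median log2 summit pileup relative to the other autosomes was 0.05 and 0.07 in WT, against 0.30 and 0.27 for Mut18 and 0.30 and 0.29 for Mut43. The WT and mutant libraries did not overlap. The median of the region-wise differences was 0.23 (1.17-fold higher in the mutants), with quartiles of 0.13 and 0.34. Mut18 and Mut43 each stood 0.23 above WT, while the WT replicates differed from each other by 0.04. The local background at the same regions stood further apart, going from 0.30 and 0.30 in WT to between 0.63 and 0.64 in the mutants, with a median difference of 0.29. Fold enrichment, which divides the first by the second, had a median difference of -0.01 on chromosome 11 and 0.02 on the other autosomes. On each of the other 18 autosomes the median pileup difference lay between -0.02 and 0.06. The exact permutation test gave p = 0.0667 for pileup and for background and p = 0.467 for fold enrichment.

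**Figure D2:**
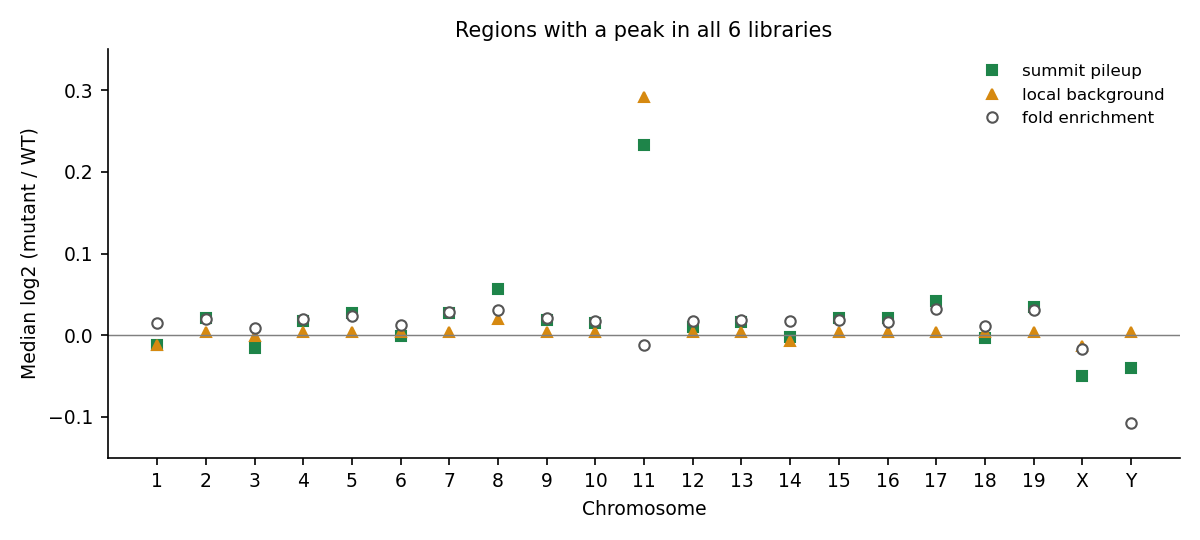
Median log2 ratio of mutant to WT (y axis) of summit pileup, local background and fold enrichment over regions with a peak in all 6 libraries, by chromosome (x axis). Chromosome 11 stands at 0.23 for pileup and 0.29 for background but at -0.01 for fold enrichment, while the pileup of every other autosome lies between -0.02 and 0.06.

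The chromosome 11 difference was of like size in weak and strong regions, but its gap to the other autosomes was smallest in the strongest. Quintiles of mean pileup were set over all chromosomes. The median log2 pileup difference on chromosome 11 was 0.24 in the weakest (462 regions), 0.26, 0.25 and 0.23 in the next 3 and 0.22 in the strongest (1192 regions). On the other autosomes it was -0.005, -0.012, -0.008, 0.013 and 0.058 in the same order. Of the 462 weakest regions 82.5% had a positive difference, beside 49.3% on the other autosomes. Of the 1192 strongest 97.1% had one, beside 71.1%. In 2261 of the 3902 regions (57.9%) all 4 mutant libraries were above both WT libraries, where the share over all 48984 such regions was 18.6%. In 60 regions (1.54%) all 4 were below, against 12.5% over all regions.

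Within-list rank was tested region by region with limma. By rank of fold enrichment no chromosome 11 region was called higher or lower at an adjusted p of 0.05, and the call rate over all 48984 regions was 0.00% in both directions. At an unadjusted p under 0.05, 189 of the 3902 regions were higher and 290 lower, or 4.84% and 7.43%, beside 7.20% and 6.46% over all regions. With quantile-normalized log2 fold enrichment limma called 8 higher and 5 lower (0.200% and 0.478% over all regions). By rank of -log10 p it called 29 and 1 (0.247% and 0.341% over all regions), and by rank of summit pileup 352 and 4 (1.92% and 1.83%). The median percentile of fold enrichment among the common regions was 35.9 and 37.4 in WT and 35.5, 34.6, 35.3 and 36.0 in the mutants, a difference of -1.27 points with overlapping groups (exact permutation p = 0.133). It was -3.82 with percentiles taken within the whole list, -1.96 with equal list lengths and -2.05 at a -log10 q of at least 10, each with an exact permutation p of 0.0667. It was -1.96 without WT replicate 1 (exact permutation p = 0.2) and -0.287 without WT replicate 2 (p = 0.8). The percentile of summit pileup went from 53.8 and 53.6 in WT to between 66.6 and 67.6. In the limma fit of log2 summit pileup, added after the data were seen, 744 regions (19.1%) were higher and 8 (0.205%) lower, beside 4.50% and 3.17% over all regions. The count of 744 was lower with either WT library left out: 182 calls were made without WT replicate 1 and 66 without WT replicate 2, and the 8 lower calls became 1 and 0.

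Along the chromosome the surplus was present in each bin of 10 Mb. Peaks in bins were counted per 1000 of a library's peaks on the other autosomes. In all 13 bins of 10 Mb the 4 mutant libraries were above both WT libraries. This held for 21.8% of the 285 bins of the genome. The ratio of mutant to WT ran from 1.06 in the bin from 10 to 20 Mb to 1.23 in the bin from 70 to 80 Mb, with a median of 1.17 and an SD over bins of 0.042. With bins of 5 Mb it was present in 24 of 25 (96%), beside 18.6% of all such bins. Among peaks within 1 kb of a TSS the ratio by 10 Mb bin ran from 0.958 to 1.15, with the bin from 10 to 20 Mb the only one below 1, and among the other peaks from 1.09 to 1.31. In 237 bins of the other autosomes with at least 1 peak per 1000 the ratio ran from 0.821 to 1.09 with an SD of 0.053, and 15 of these bins reached the lowest chromosome 11 ratio. The lowest bin had 3.11 and 3.16 peaks per 1000 in WT, against 3.24 and 3.34 for Mut18 and 3.33 and 3.34 for Mut43. It was also the lowest in pileup, with a median log2 difference of 0.14 over 143 regions and a background difference of 0.09, while the other 12 bins lay between 0.205 and 0.253 in pileup. The highest bin had 8.21 and 8.38 peaks per 1000 in WT, against 10.1 and 10.4 for Mut18, and 10.2 in each Mut43 library. The ratio was 1.17 on the centromeric side of H3f3b, 1.14 on the telomeric side and 1.17 within 1 Mb of the gene, with median pileup differences of 0.23, 0.23 and 0.25. The H3f3b promoter region itself (chr11:116023754-116024813) had a normalised summit pileup of 84.5 and 97.8 fragments in WT, against 111.0 and 101.4 for Mut18 and 115.0 and 112.6 for Mut43. All 4 mutant values were above WT, and the log2 difference of 0.27 had an adjusted p of 0.140 in limma.

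**Figure D3:**
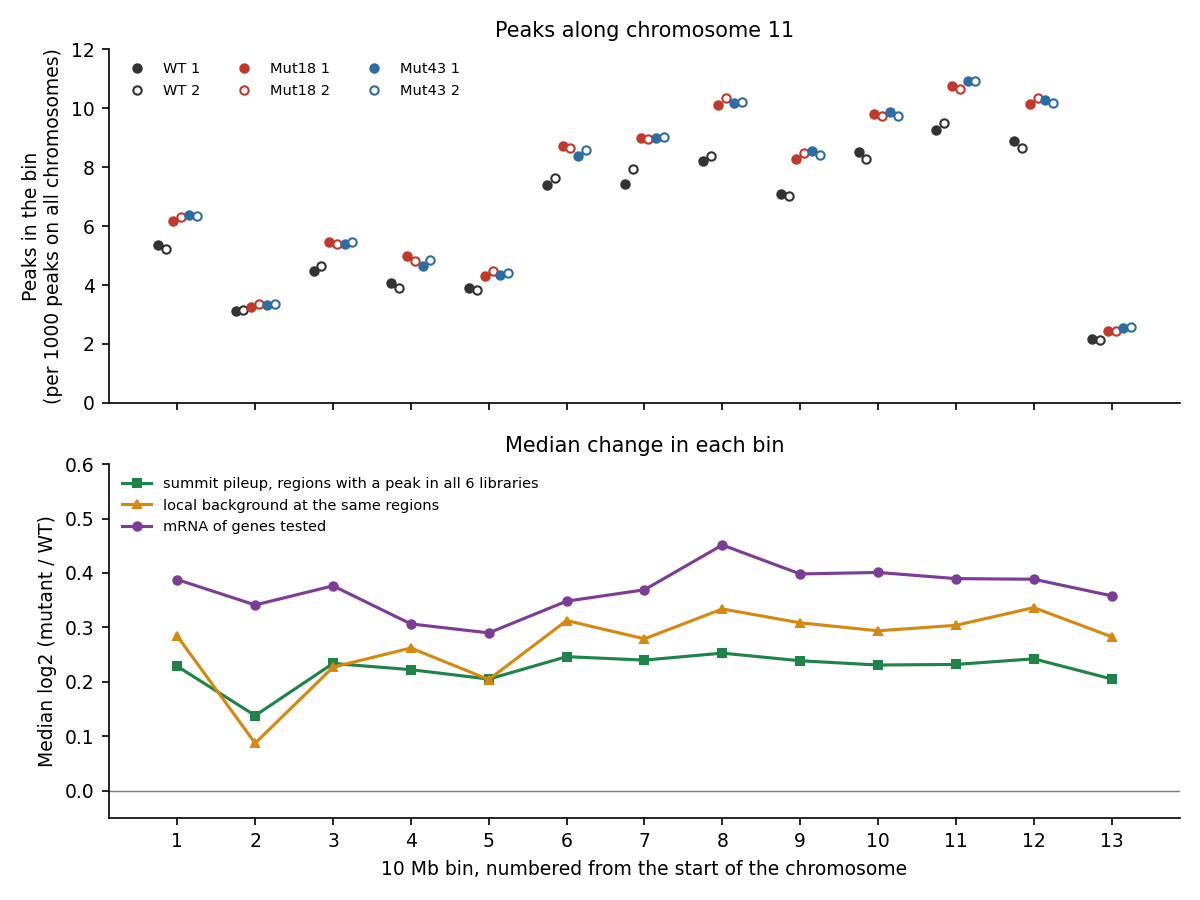
Top, peaks in each 10 Mb bin of chromosome 11 (y axis), with 1 point per library. The values are per 1000 of the library's peaks on the other autosomes, although the axis label names all chromosomes. Bottom, median log2 ratio of mutant to WT in the same bins for summit pileup, local background and mRNA; every bin lies above 0 in all 3, and bin 2 is lowest in pileup (0.14) and background (0.09).

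In mRNA-seq, the median log2 fold change of the 1182 chromosome 11 genes tested with edgeR was positive in each bin, from 0.29 (37 genes, 40 to 50 Mb) to 0.45 (160 genes, 70 to 80 Mb), and the bin from 10 to 20 Mb stood at 0.34 with 20 genes. By edgeR's quasi-likelihood test 94 genes (7.95%) were upregulated at an adjusted p under 0.05 and a log2 fold change above 1, beside 3.28% of all 14061 genes, and 20 (1.69%) were downregulated, beside 5.65% (33 without WT replicate 2). At any size 792 genes (67.0%) were higher and 84 (7.11%) lower, beside 23.5% and 24.5%. Scaling with chromosome 11 left out moved its median from 0.39 to 0.41.

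The surplus was larger away from start sites. Within 1 kb of a TSS chromosome 11 held 7.75% and 7.82% of the peaks in WT, against 8.26% and 8.21% for Mut18 and 8.31% and 8.34% for Mut43, a ratio of 1.06. Beyond 1 kb it held 6.92% and 6.88% in WT, against 8.31% and 8.41% for Mut18, and 8.34% in both Mut43 libraries, a ratio of 1.21. The mutant libraries were above both WT libraries in each class. The ratio was 1.19 from 1 to 10 kb, 1.22 from 10 to 50 kb and 1.24 beyond 50 kb. The distal surplus exceeded the proximal one by 0.952 percentage points (exact permutation p = 0.0667), and by 0.545 with the window set at 5 kb. In pileup the classes were closer, with a median log2 difference of 0.21 at the 1431 proximal and 0.25 at the 2471 distal common regions. Among proximal peaks the ratio by quintile of fold enrichment went from 0.893 in the strongest to 1.22 in the weakest, and among distal peaks from 1.12 to 1.40. By -log10 p the order was the opposite in both classes, from 1.15 in the strongest to 0.934 in the weakest among proximal peaks and from 1.46 to 1.09 among distal ones.

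Presence overlapped between the groups near and far from start sites. Of the 1984 proximal regions 90.7% and 80.9% had a peak in WT, and 81.0%, 86.6%, 85.3% and 83.5% in the mutants. Of the 4921 distal regions 76.8% and 61.3% had a peak in WT and 70.8%, 79.7%, 77.0% and 72.7% in the mutants. On the other autosomes the mutants had a peak at 68.2%, 75.04%, 73.1% and 69.7% of regions and WT at 87.5% and 72.5%, where on chromosome 11 it was 73.7%, 81.7%, 79.4% and 75.8% in the mutants and 80.8% and 66.9% in WT. WT replicate 1 was the highest library elsewhere but not on chromosome 11.

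Most chromosome 11 regions were shared, and 3902 (56.5%) had a peak in all 6 libraries, beside 54.4% on the other autosomes. There were 139 mutant-only regions (2.01%), found in each of the 4 mutant lists but neither of the WT lists, beside 0.733% of all regions. There were 64 WT-only regions (0.927%), found in the WT lists alone and in each of them, beside 3.25% of all regions. With equal numbers of the strongest peaks from each list these became 254 and 30, and without WT replicate 1 they became 442 and 129. Without WT replicate 2 there were 391 WT-only regions, and without Mut18 replicate 1 there were 219 mutant-only ones. A further 1001 regions (14.5%) had a peak in 1 to 3 mutant libraries and no WT library, beside 8.98% on the other autosomes, and 381 (5.52%) had a peak in 1 WT library alone, beside 9.16%. The clones had like numbers of regions of their own, 43 in Mut18 (0.623%, beside 0.327% on the other autosomes) and 44 in Mut43 (0.637%, beside 0.335%), each in both of that clone's libraries and in no other.

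The mutant-only and WT-only regions were both narrower and weaker than the common ones. This follows largely from how they were chosen, as weak regions miss the peak threshold more often. Widths span all merged peaks, and best pileups are the highest of any library, not scaled for depth. Their median widths were 236 and 222.5 bp, where regions with a peak in all 6 libraries measured 509 bp, and their best summit pileups had medians of 34 and 35 fragments against 61. Mutant-only regions of the other autosomes measured 232.5 bp, and 13.4% of them lay within 1 kb of a TSS, where on chromosome 11 it was 7.91%. Of the 139 mutant-only regions 11 lay within 1 kb of a TSS, while 54 were intronic, 11 exonic and 63 intergenic, and they were spread over all 13 bins. Of the 64 WT-only regions 24 lay within 1 kb of a TSS. The CTCF core was found in 9 of the 139 mutant-only windows (6.47%), 1 of the 64 WT-only windows (1.56%) and 5.15% of the windows of the common regions. The GC box was found in 15.1%, 28.1% and 30.2%, and among the distal regions alone in 14.8%, 17.5% and 17.8%. The strongest mutant-only regions by fold enrichment lay in an intron of Ankfn1 (chr11:89611554-89611888), 33182 bp from Gm11531 (chr11:96425294-96425480) and 88129 bp from a TSS of Ankfn1 (chr11:89865782-89865987). The one near Gm11531, which holds the CTCF match shown above, had fold enrichments of 9.65 and 9.28 in Mut18 and 9.51 and 8.93 in Mut43. The strongest WT-only region, in the Pafah1b1 intron, had 7.11 and 9.46 in WT. Its normalised pileup of 23.2 and 29.4 fragments and the 33.1 to 37.4 of the Gm11531 region were both low beside common regions.

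Among classes of repeated sequence, the median pileup difference was lowest at the most repeated regions. The 31 bases under the summit occurred once in the genome for 6322 of the 6905 regions, 2 to 10 times for 230, 11 to 100 times for 130 and over 100 times for 223. Among the common regions the median log2 pileup difference was 0.24 at 3591 regions of 1 copy, 0.23 at 108 of 2 to 10 copies, 0.15 at 68 of 11 to 100 copies and -0.06 at 135 of over 100 copies. On the other autosomes the same classes stood at 0.03, 0.04, -0.02 and -0.10, so the gap to chromosome 11 narrowed as copies rose. In the limma fit 701 of the 3591 regions of 1 copy (19.5%) were higher and 4 (0.111%) lower, of those of 2 to 10 copies 23 (21.3%) were higher and of those of 11 to 100 copies 13 (19.1%), with none lower in either class, and of the 135 most repeated 7 (5.19%) were higher and 4 (2.96%) lower. On the other autosomes 3.40%, 5.84%, 3.35% and 0.859% of the same classes were higher and 2.77%, 3.89%, 6.30% and 7.84% lower, so the higher calls were fewest and the lower calls most frequent above 100 copies there too. The copy number was not part of the rule for the regions, and how reads of repeated sequence were placed is not given in the sources used here.

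**Figure D4:**
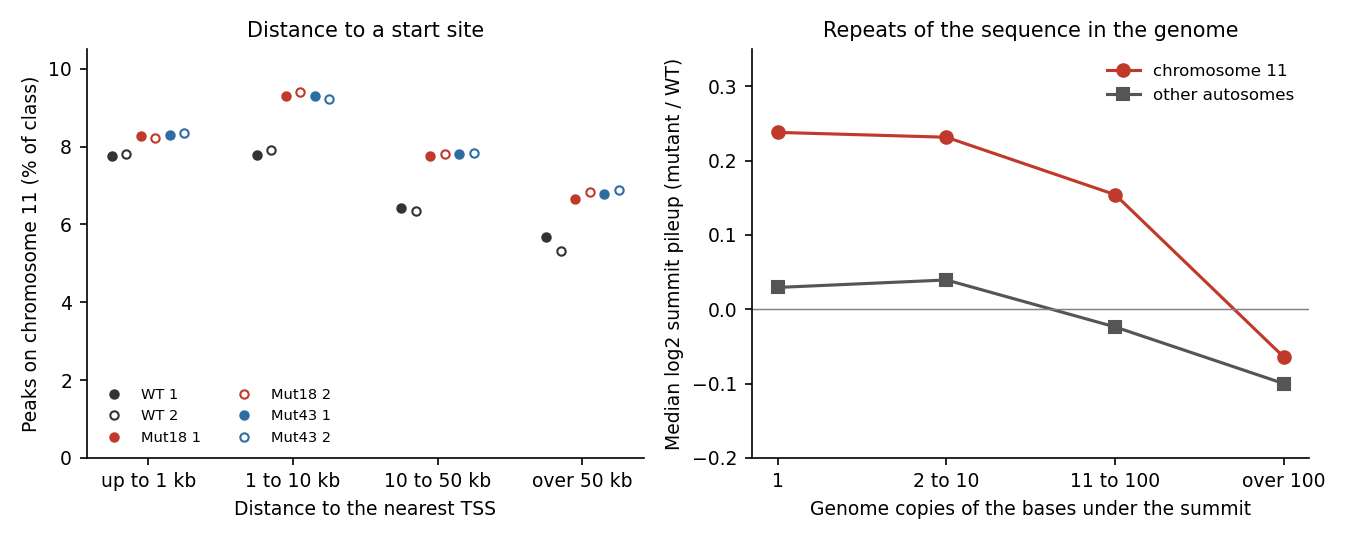
Left, share of peaks on chromosome 11 (y axis, percent) by distance to the nearest TSS, with 1 point per library. Right, median log2 ratio of mutant to WT summit pileup at regions with a peak in all 6 libraries against the number of genome copies of the 31 bases under the summit; chromosome 11 goes from 0.24 at 1 copy to -0.06 above 100 copies, and the other autosomes from 0.03 to -0.10.

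All 8 regions called lower in pileup were examined. The summit bases of 4 of them, near Cdrt4, 4930512M02Rik, Gm12240 and Gm24275, occurred 3243 to 4821 times in the genome. The region in an intron of Cdrt4 (chr11:62974107-62974779) had a normalised pileup of 37.2 and 36.8 in WT and 26.05, 23.1, 22.6 and 23.2 in the mutants, a log2 difference of -0.64 (limma, adjusted p = 0.00234). It was also the lowest in p of all regions with a lower rank in the mutants, going from percentiles of 86.8 and 84.8 to between 30.8 and 44.7, with an adjusted p of 0.0955. The other 4 occurred once. One of them covered a TSS of Aff4, the scaffold of the super elongation complex (chr11:53350358-53351197), with 55.8 and 69.4 in WT and 35.1, 51.2, 46.2 and 38.6 in the mutants (adjusted p = 0.0256). Another lay in an intron of Slit3, the gene of an axon guidance ligand (chr11:35498318-35498570), with 38.0 and 31.5 in WT and 23.8 to 29.8 in the mutants (adjusted p = 0.0452).

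The region with the lowest p among those that gained pileup lay in an intron of Gal3st1, which encodes the sulfotransferase that makes sulfatide (chr11:3992311-3992903). It had 24.8 and 22.1 fragments in WT, against 55.5 and 52.2 for Mut18 and 57.5 and 55.2 for Mut43, a log2 difference of 1.23 (limma, interval 1.01 to 1.46, adjusted p = 3.14e-05). Its percentile of fold enrichment went from 23.7 and 14.2 to between 50.4 and 55.3, the lowest p of the rank fit in this direction, with an adjusted p of 0.0960. The next was 3347 bp from a TSS of Slc16a11, a gene of the monocarboxylate transporter family (chr11:70209143-70209405), with 24.8 and 28.4 in WT and 47.5 to 55.5 in the mutants. The third was intergenic near Gm23827 (chr11:23801896-23802641), with 37.2 and 32.6 in WT and 63.7 to 71.8 in the mutants. Both had an adjusted p of 0.000525 and a gap between the groups. The strongest proximal regions, picked by their mean rank over the 6 libraries, were those of Gm11992, Gm25799 and the tektin gene Tekt3. Their percentiles among the common regions were 97.1 or more in all 6 libraries. High values in each library follow largely from that choice, for these and for the distal regions picked likewise. The top 3 distal regions were between the percentiles 99.8 and 100.0 in all 6. The first of these (chr11:121982341-121982551) is the last one on the chromosome, and its window holds 30 copies of the telomeric repeat TTAGGG.

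**Figure D5:**
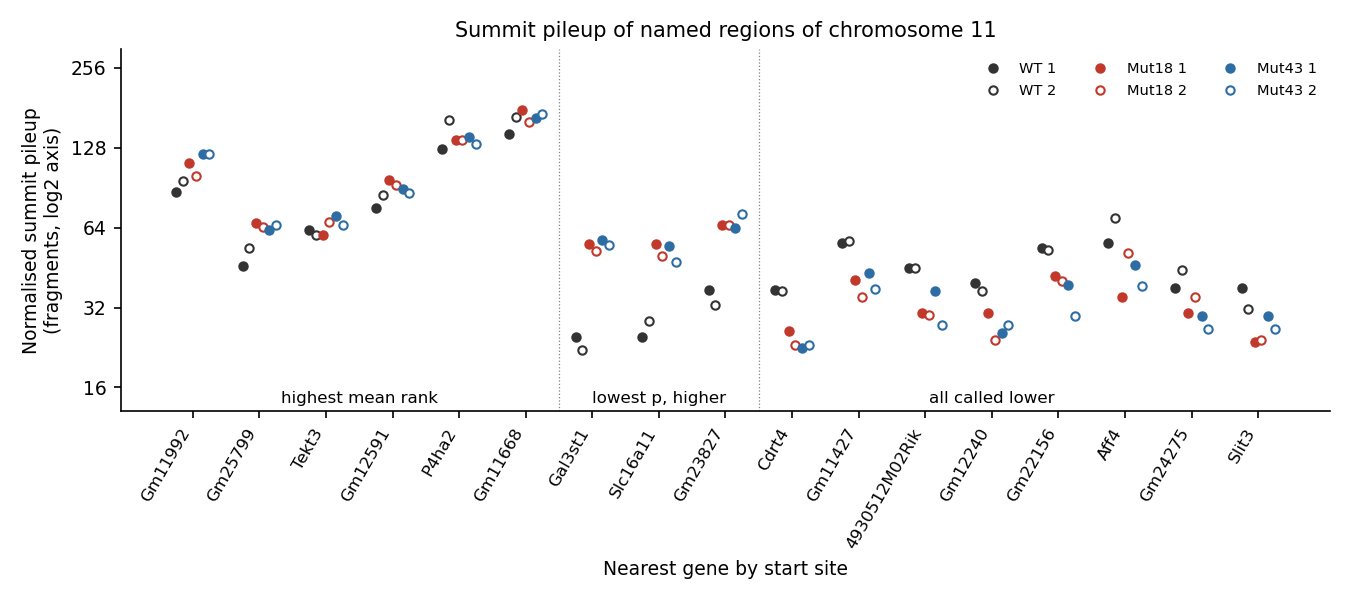
Normalised summit pileup (y axis, fragments, log2 scale) of 17 named regions of chromosome 11 in each library, labelled by the nearest gene by start site. The 3 regions near Gal3st1, Slc16a11 and Gm23827 show a gap between WT and mutants, the 6 of highest mean rank lie between 45.7 and 177.8 fragments, and the 8 called lower lie between 22.6 and 69.4 fragments.

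Promoters of known genes were compared with their mRNA by lists, whose counts stand beside 67.0% of the tested chromosome 11 genes higher and 7.11% lower in mRNA at any size (23.5% and 24.5% of all genes) and 19.1% of the common regions called higher in pileup. Of the 8 genes of p53 and cell division 8 rose in mRNA, beside 67.0% of the chromosome (edgeR, adjusted p under 0.05, none past a log2 fold change of 1), with a median log2 fold change of 0.42 beside 0.39 for the chromosome. Their promoters had a peak in all 6 libraries in 8 of 8, with a positive pileup difference in 8 of 8 and a median of 0.22 beside 0.23 for all common regions of the chromosome, and 1 was called. That was Trp53, the tumour suppressor gene, at 80.6 and 85.2 fragments in WT and 104.4 to 113.2 in the mutants (log2 difference 0.38, limma adjusted p = 0.0329). Trp53 mRNA went from 6669 and 6993 normalized counts to between 7886 and 8563 (log2 fold change 0.26 ± 0.04 SE, adjusted p = 3.1e-05 by edgeR). Top2a, the topoisomerase that untangles replicated DNA, had 15072 and 14577 counts in WT and 20075 to 22608 in the mutants.

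Of the 18 genes of H3.3 and chromatin regulators 12 rose, 3 fell and 3 did not pass the test in mRNA, with a median of 0.34 beside 0.39 for the chromosome, where 67.0% rose and 7.11% fell. Promoter regions had a peak in all 6 libraries in 17, and 14 of these 17 had a positive pileup difference (median 0.17, 1 called, beside 19.1% of the common regions). Suz12, a core subunit of PRC2, went from 4521 and 4130 counts in WT to between 6915 and 8126 in the mutants (log2 fold change 0.80), while its promoter pileup was 78.3 and 84.1 in WT and 77.0 to 88.3 in the mutants, with overlapping groups. Ezh1, the second methyltransferase of PRC2, rose from 463 and 385 to between 689 and 760, and its promoter pileup was 64.3 and 73.6 in WT and 86.1 to 88.3 in the mutants (limma adjusted p = 0.056). The called promoter was that of Hexim1, an inhibitor of P-TEFb, at 80.6 and 81.0 in WT and 106.5 to 116.1 in the mutants (log2 difference 0.45, limma adjusted p = 0.0140). Cbx2, a PRC1 subunit, fell from 596 and 530 counts to between 437 and 487. H3f3b mRNA was 12378 and 12398 in WT, against 11655 and 12026 for Mut18 and 13556 and 13386 for Mut43, so the clones lay on opposite sides of WT.

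Of the 3 imprinted genes 2 rose and 1 fell. Grb10, an adaptor that restrains growth factor signalling, had 4163 and 4065 counts in WT and 226 to 290 in the mutants. It has 3 promoter regions, and the one with a peak in all 6 libraries (chr11:12025596-12026299) stood at 47.3 and 43.1 fragments in WT and 52.1, 53.2, 54.4 and 64.04 in the mutants, and its log2 difference of 0.30 had an adjusted p of 0.11 in limma. The others lacked a peak in at least 1 library and could not be fitted. From 10 kb before to 10 kb after Grb10 there were 9 regions, of which 9 and 8 had a peak in WT and 6, 7, 7 and 7 in the mutants. Of these regions 1 was WT-only, beside 0.927% of the chromosome 11 regions. The 6 with a peak in all libraries, a set that leaves out any lost peak, had a median log2 pileup difference of 0.32. Of the 9 regions around Commd1 and Zrsr1, 9 and 7 had a peak in WT and 8, 9, 9 and 9 in the mutants. The 4 regions around H3f3b had a peak in every library. Over the whole chromosome 80.8% and 66.9% of regions had a peak in WT and 73.7% to 81.7% in the mutants. Zrsr1, a splicing factor gene expressed from the paternal copy inside an intron of Commd1, had 274 and 260 counts in WT and 494 to 554 in the mutants (log2 fold change 1.00 ± 0.08 SE, adjusted p = 2.2e-09 by edgeR). Its promoter region went from 50.4 and 50.5 fragments to 88.3, 79.3, 77.0 and 75.1, a log2 difference of 0.66 (limma adjusted p = 0.00214), the largest among the 57 promoter regions of named genes that could be fitted. Commd1 mRNA rose by 0.30 on the log2 scale and its promoter stood 0.24 higher without passing the test.

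LIF sustains mouse ESCs through STAT3, and its relative OSM signals through a receptor of the same family. Of the 6 genes of this list 3 rose and none fell, beside 67.0% and 7.11% of the chromosome. Osm was at 2.0 and 0.0 normalized counts in WT and 10.1 to 16.3 in the mutants, which is low in every library (adjusted p = 0.00035 by edgeR). The region near its TSS (chr11:4237342-4237535) had a peak in the 4 mutant libraries only, at 56.6 and 44.2 fragments in Mut18 and 59.6 and 49.7 in Mut43. Lif had 98.6 and 77.4 counts in WT and 74.3 to 93.1 in the mutants. Stat3 rose from 1859 and 1734 to between 2179 and 2297, and its promoter pileup was 75.2 and 82.0 in WT and 92.3 to 99.4 in the mutants (log2 difference 0.28, limma adjusted p = 0.12). Of the 7 Wnt pathway genes 6 were tested, 2 rose and 2 fell, beside the same shares. Fzd2, a Wnt receptor, fell from 507 and 564 counts to between 245 and 360, while its promoter stood at 75.2 and 78.9 fragments in WT and 81.7 to 91.3 in the mutants. Wnt3, a ligand that starts gastrulation, fell from 86.9 and 99.0 to between 38.7 and 56.1. Tcf7, a transcription factor of the pathway, rose by 0.40 on the log2 scale, and its promoter region had a peak in WT replicate 1 and the 4 mutant libraries.

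Developmental genes often lacked a promoter peak in at least 1 library. Of 17 developmental transcription factors 14 had a region within 1 kb of a TSS and 7 had one with a peak in all 6 libraries. Among the 1182 tested genes of the chromosome 1052 had one. Only 13 of the 17 had enough counts to be tested, so these are unlike sets. Of the 13 tested 5 fell in mRNA, 2 rose and 6 did not pass the test, where 7.11% of the chromosome's genes fell and 67.0% rose. Across the Hoxb cluster, from Hoxb9 to Hoxb1 with 10 kb on either side, there were 20 regions, of which 18 and 14 had a peak in WT, against 11 and 13 for Mut18 and 12 and 13 for Mut43. The 8 with a peak in all libraries, which leave out any lost peak, had a median log2 pileup difference of 0.11. In the stretches around H3f3b and around Commd1 and Zrsr1, given above, the mutants did not fall below both WT libraries. Those stretches hold only 4 and 9 regions, and the Hoxb stretch was chosen after values were seen. Whether the Hoxb stretch differs from them was not tested. Hoxb3 went from 35.1 and 34.3 counts to between 11.2 and 19.02 (adjusted p = 0.00045 by edgeR), and its promoter pileup was 44.9 and 43.1 in WT and 44.2 to 47.6 in the mutants. The Hoxb9 promoter region had a peak in WT replicates 1 and 2 and Mut18 replicate 2 only, with mRNA at 90.8 and 91.2 in WT and 71.2 to 107 in the mutants. Rara, the retinoic acid receptor alpha gene, rose from 780 and 770 to between 985 and 1110 counts, and its promoter from 79.8 and 79.9 to between 99.6 and 109.3 fragments (log2 difference 0.37, limma adjusted p = 0.0383).

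Of the 21 tissue-restricted genes 12 were tested in mRNA, 8 rose, 1 fell and 3 did not pass the test (67.0% and 7.11% of the chromosome rose and fell), and 9 had a promoter region with a peak in all 6 libraries, none of them called, beside 19.1% of the common regions. Krt17, a keratin of epithelia, went from 165 and 141 counts to between 600 and 634, and its promoter pileup from 78.3 and 72.6 to between 83.2 and 101.4 (log2 difference 0.27, limma adjusted p = 0.15). Ngfr, the low-affinity nerve growth factor receptor, rose from 284 and 280 to between 527 and 557, and its promoter stood at 66.6 and 68.4 in WT and 69.8 to 81.7 in the mutants. Myh3, an embryonic myosin heavy chain, rose from 50.8 and 49.0 to between 133 and 147 and had no region near a TSS. Col1a1, a collagen gene that is also a feeder marker, fell from 1986 and 1797 counts to between 1234 and 1664.

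Large changes in mRNA came with and without an open promoter. Of the 5 with the highest log2 fold changes, Lgals9, Krt42 and Aldh3a1 had no region within 1 kb of a TSS. Hormad2, a meiotic chromosome axis gene, went from 23.4 and 20.6 counts to between 116 and 121, and its promoter from 61.2 and 61.0 fragments to between 78.3 and 90.6 (log2 difference 0.43, limma adjusted p = 0.0218). Myo1g, a myosin gene of blood cells, went from 24.4 and 33.3 counts to between 118 and 162, and its promoter region had a peak in 3 mutant libraries and no WT library. Only 4 downregulated genes reached the mean of 50 normalized counts. Beside Grb10 these were Car4, a carbonic anhydrase gene, at 287 and 286 counts in WT and 96.4 to 132 in the mutants, Slit3 at 165 and 192 against 70.2 to 97.1, and Aoc3, an amine oxidase gene of adipocytes, at 263 and 10.8 against 33.0 to 51.8. The WT libraries of Aoc3 lay on either side of the mutants. The promoter pileup of Car4 was 51.9 and 51.5 in WT and 57.8, 53.2, 56.5 and 53 in the mutants, and that of Slit3 59.7 and 76.8 against 66.2 to 68.8.

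The median change in mRNA was alike across promoter states, while the shares of called genes were not. The median log2 fold change was 0.38 for the 1052 tested genes with a promoter region open in all 6 libraries, 0.39 for 62 whose region lacked a peak in at least 1 library, and 0.45 for 68 with no region within 1 kb of a TSS. At any size 69.8%, 50.0% and 39.7% of these genes were higher. Past a log2 fold change of 1 the order was the opposite. There 64 of the 1052, 11 of the 62 and 19 of the 68 were upregulated, beside 7.95% of the chromosome, and 15, 3 and 2 downregulated. The part of the count level in this was not tested. Their median levels were 479, 54.1 and 18.5 normalized counts.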

How the data were processed

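Samples were grouped by the titles given with the deposited data, 2 libraries per line in each assay. Libraries were paired-end and the reference was mm10 joined to dm6. The submitters' processing notes name Bowtie2 2.3.4.2, deepTools 3.3.0, SAMtools, STAR, MACS2 and DESeq2 with no role. For ATAC-seq the authors deposited 1 peak list per library, not pooled. Each peak carries its fold enrichment (a ratio to the local background) besides the -log10 p and -log10 q deposited with it, and no listed -log10 q was under 6. The mRNA-seq table that the authors deposited holds raw counts per gene, with totals of 14992756 to 15143998 per library. The other samples of the series were not analysed here.

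Peaks were merged at 1 bp of overlap and assigned to TSSs of GENCODE vM21 (141730 transcripts). Summit pileup k and background b were solved from an assumed fold = (k + 1) / (b + 1) and Poisson p of k. Ranks and log2 pileups of the 48984 regions with a peak in all 6 libraries were fitted with limma 3.58.1, WT (n = 2) against mutants (n = 4). Counts were filtered with filterByExpr (minimum count 10) and tested with edgeR 4.0.16 (TMM, quasi-likelihood), with Benjamini-Hochberg adjustment. The recovery of pileups, the merging of peaks, the permutation test, the limma fits of pileup and of ranks and the edgeR fit were tested on simulated data with known answers, and the other steps were not. Of 16263 gene symbols 15616 matched the annotation directly and 477 by synonym, and 1345 lay on chromosome 11. Replicates are called biological duplicates with no word on separate cultures, so p-values measure the spread between these libraries, which may be technical. The permutation, limma and edgeR tests all treat libraries of the same line as independent, with no term for the line.

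Named genes were those of the lists on chromosome 11 (marker lists on any) and the called genes of largest change in each direction whose mean reached 50 normalized counts. Named regions were the 3 highest in mean rank within and beyond 1 kb of a TSS, the 3 strongest mutant-only and WT-only ones, the 3 lowest in p in each direction, and those at promoters of named genes. The recovery of pileups, the copy classes, the regions named from the pileup fit, the Osm and Zrsr1 sequences and the loci of Grb10 and the Hoxb cluster were chosen after values were seen. The chromosome, the lists and the tests were chosen with earlier results of these data known. Alternatives were other rankings, list lengths, thresholds, windows, bins, overlaps, normalizations, filters, DESeq2 1.42.0, a replicate block, each clone alone and each library left out.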

Additional observations from a re-analysis of the deposited data

Results flagged for a closer look

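Among 209 sets of 4 mutant libraries compared, 8 (3.83%) held a library far from the other 3, where chance alone flags about 1 in 20. Mut18 replicate 2 was low in the share of chromosome 11 peaks in the second quintile by -log10 p, at 7.87% against 8.20% to 8.21%, and high in Hoxb7 mRNA, at 13.1 normalized counts against 7.12 to 8.12. Mut18 replicate 1 was low in the bin from 10 to 20 Mb, at 3.24 peaks per 1000 against 3.33 to 3.34. It was high in Commd1 mRNA, at 825 counts against 789 to 791, in the pileup of the region in an intron of Ppm1e, at 55.5 fragments against 53 to 53.4, and in that of the Tk1 promoter, at 73.6 against 66.2 to 67.3. Mut43 replicate 1 was low in the second quintile by summit pileup, at 9.82% against 10.0% in each of the others. Mut43 replicate 2 was high in Thy1 mRNA, at 121.8 counts against 84.0 to 90.1.

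In 2 genes every library of one clone was above WT and every library of the other below it, a difference that was not tested. Mut18 minus Mut43 was -1630.5 normalized counts for H3f3b mRNA. Hoxb9 mRNA was 21.9 counts higher in Mut18 than in Mut43.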

How the results depend on the processing

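Of 147 recomputed results 124 were counted as the same. For differences between WT and mutants this asked only for the same sign, not for a like size. The shift of -1.27 in median percentile of fold enrichment thus counted as the same at -0.287 and at -3.82. Counts had to stay within 1.5 times the main count, and bin medians of mRNA within the spread of libraries. The sign turned with the measure of strength. The surplus of the weakest over the strongest quintile became -1.64 percentage points by -log10 p and -4.70 by summit pileup, and the shift of the median percentile became 10.2 by -log10 p and 13.4 by summit pileup. The rank calls, 0 in both directions, became 8 higher and 5 lower after quantile normalization, 29 and 1 by -log10 p, and 352 and 4 by summit pileup. With equal list lengths the 139 mutant-only and 64 WT-only regions became 254 and 30. The highest bin median of mRNA became 0.43 at a mean of at least 50 counts.

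With single libraries left out, mutant-only regions ranged from 151 to 442, WT-only regions from 77 to 391, regions higher in pileup from 66 to 628, regions lower in pileup from 0 to 11, downregulated genes from 17 to 33 (33 without WT replicate 2) and the highest bin median from 0.43 to 0.46. Same-numbered libraries shared only a number, with correlations of their deviations between -0.01 and 0.02, and a replicate block gave 0 and 0 rank calls, 744 higher and 10 lower in pileup, and 94 upregulated and 20 downregulated genes. The lists hold no reads below the peak threshold, so a missing peak is not a measured 0, and with 2 WT libraries of unequal depth the presence counts carry that depth.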
